A study of Rattus norvegicus with 9 samples.

Results

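The mitochondrial ribosomal protein genes of rat aortic smooth muscle cells were taken as every row of the deposited expression table whose symbol is Mrpl or Mrps followed by a number and, in some, a letter. This gave 76 of 32623 genes, with 45 rows named for the large subunit (Mrpl) and 31 named for the small subunit (Mrps). They carry 75 distinct symbols, because Mrps21l is listed in 2 rows. The cells were primary vascular smooth muscle cells from wild-type rat aorta, at passages 4 to 8, grown in 20% serum, held for 12 h without serum and treated in 2% serum. The Control group received the same volume of the solvent DMSO. The PDGF-BB group received this growth factor, a mitogen for smooth muscle, for 24 h, at 10 ng/mL in the sample labels and 20 ng/mL in the series design. The PDGF-BB+PTUPB group received 0.5 µM PTUPB, an inhibitor of cyclooxygenase-2 and soluble epoxide hydrolase, 2 h before PDGF-BB. Each group had 3 libraries of poly(A) RNA. The labels do not say whether these came from separate animals or cultures, so p-values measure only the spread between libraries. There was no group with PTUPB alone.

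The mitochondrial ribosome, or mitoribosome, translates the few proteins that mitochondrial DNA encodes, which are core subunits of the respiratory chain and ATP synthase. Its protein subunits are encoded in the nucleus, made in the cytosol and imported, while its ribosomal RNAs are transcribed inside the mitochondrion. The small subunit reads the messenger RNA, and the large subunit forms the peptide bond and holds the exit tunnel.

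Promoter windows of 4 members are printed because their letters bear on 2 features of the family: motifs of factors known to act on nuclear genes for mitochondrial proteins, and gene pairs that share a promoter. Each window is the 250 bases before the RefSeq gene start, 5′ to 3′ on the gene's strand, in the rat build GRCr8. Capitals mark a match, on either strand, to 1 of 6 motifs: the core of the NRF1 site (GCATGCGC), the full NRF1 site (that core with GC before it, so that every full match also counts as a core match), ETS (CCGGAAGT), YY1 (AAGATGGC), the E-box (CACGTG) and the GC box (GGGCGG). The Mrpl17 window is chr1:169575700-169575949 on the minus strand, and that of Mrpl32 is chr17:55260401-55260650 on the plus strand. The Mrps18b window is chr20:2842756-2843005 on the plus strand, and that of Mrps11 is chr1:142117014-142117263 on the plus strand.
Mrpl17: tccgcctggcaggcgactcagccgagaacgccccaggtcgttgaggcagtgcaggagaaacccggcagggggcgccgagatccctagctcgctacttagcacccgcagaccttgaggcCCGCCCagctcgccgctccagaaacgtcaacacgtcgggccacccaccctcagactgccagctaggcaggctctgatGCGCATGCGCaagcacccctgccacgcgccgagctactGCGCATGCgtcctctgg
Mrpl32: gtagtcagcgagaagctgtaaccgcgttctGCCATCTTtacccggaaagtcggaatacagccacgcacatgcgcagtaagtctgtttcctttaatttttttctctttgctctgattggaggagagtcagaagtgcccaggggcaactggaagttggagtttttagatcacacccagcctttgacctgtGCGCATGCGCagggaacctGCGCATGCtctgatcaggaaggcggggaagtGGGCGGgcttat
Mrps18b: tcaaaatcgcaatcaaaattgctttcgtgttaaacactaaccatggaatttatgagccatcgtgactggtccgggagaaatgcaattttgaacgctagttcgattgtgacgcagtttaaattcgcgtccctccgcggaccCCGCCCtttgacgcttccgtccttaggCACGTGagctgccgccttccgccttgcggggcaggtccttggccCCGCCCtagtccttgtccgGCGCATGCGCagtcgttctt
Mrps11: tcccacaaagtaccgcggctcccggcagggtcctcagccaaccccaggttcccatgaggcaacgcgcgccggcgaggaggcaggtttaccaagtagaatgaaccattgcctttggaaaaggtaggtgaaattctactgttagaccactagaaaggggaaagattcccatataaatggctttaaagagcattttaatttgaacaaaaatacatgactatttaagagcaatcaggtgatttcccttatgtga

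The full NRF1 motif was found in Mrpl17, Mrpl32 and Mrps18b, and in Mrpl44, whose window is not printed. RefSeq windows were matched to 59 of the 76 rows, and 4 of these 59 (6.78%) held the full NRF1 motif, against 1.03% of 19005 protein-coding windows of the same length. The shorter NRF1 core was in 5 windows (8.47%, against 2.95%). The ETS motif was in 5 (8.47%, against 4.16%) and the YY1 motif in 3 (5.08%, against 1.71%). The E-box was in 3 (5.08%, against 6.38%), and the GC box in 27 (45.8%, against 40.3%). Most windows held neither the NRF1 core nor the ETS or YY1 motif. No match was found in the Mrps11 window. Mrps11 and Mrpl46 lie head to head, and their windows share 233 bases on opposite strands. No promoter window was at hand for Mrpl13, Mrpl15, Mrpl16, Mrpl19, Mrpl21, Mrpl35, Mrpl38, Mrpl43, Mrps12, Mrps21l, Mrps22, Mrps24, Mrps28, Mrps34, Mrps35 or Mrps36.

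Library totals ran from 12729187 to 16911050 counts. A gene was tested if 3 or more of the 9 libraries had an FPKM (fragments scaled to exon length and library size) of 1 or more, which left 11197 genes. Marker genes of smooth muscle summed to 1717 to 2342 FPKM in Control, 2153 to 2517 with PDGF-BB and 2182 to 2441 with both agents. Of the 6 of these 8 markers that passed the filter, 3 fell with PDGF-BB: Myh11 (-1.04), Acta2 (-0.53) and Lmod1 (-0.40, log2). The other 3 were not called. Of the 6, 2 had log2 differences above 0 (up to 0.32), and for 2 all PDGF-BB libraries lay above all Control libraries. Myh11 was higher with PTUPB than with PDGF-BB alone (0.54), and the part of these changes in the mitoribosomal results was not tested. Endothelial markers, of which Cdh5, Kdr and Tie1 had 0 counts and 1 of 7 passed the filter, summed to 12.2 to 13.0 FPKM in Control, 12.4 to 14.4 with PDGF-BB and 14.9 to 17.3 with both agents. Macrophage markers, of which Ptprc and Tyrobp had 0 counts and 2 of 7 passed, summed to 15.4 to 24.1, 16.7 to 18.4 and 21.3 to 22.2 FPKM in the same order. The 1 tested endothelial marker (0.32) and 1 of the 2 tested macrophage markers (0.47, log2) were higher with PTUPB than with PDGF-BB alone. Their part in the mitoribosomal results was not tested. The summed FPKM of 7 adventitial fibroblast markers, of which 4 passed and none was at 0, was 343 to 358 in Control, 128 to 154 with PDGF-BB and 262 to 323 with both agents. Of these 4, 3 fell with PDGF-BB and 3 were higher with PTUPB than with PDGF-BB alone, which is the opposite direction to the mitoribosomal genes below, and their part in those results was not tested. In bulk RNA, fewer cells of a type and less RNA per cell cannot be told apart.

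Of the 76 rows, 72 passed the filter, 43 of the large and 29 of the small subunit. The other 4 were Mrpl36, Mrpl53 and both Mrps21l rows. Mrps21l had 0 counts in all 9 libraries. Mrpl36, whose protein is the homologue of the smallest bacterial large-subunit protein, had 1 count in replicates 1 and 3 of PDGF-BB+PTUPB and 0 elsewhere. Mrpl53 had 45, 73 and 0 counts in Control, 1, 2 and 0 with PDGF-BB and 0, 1 and 0 with both agents. The third Control library lacked Mrpl53 altogether, so the Control group itself held both the highest values and a 0.

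Levels between genes were compared as mean FPKM over the 9 libraries. Mrpl17, the homologue of a bacterial protein near the exit of the peptide tunnel, was the most abundant tested member at 90.8 FPKM. It was followed by Mrpl13 and Mrpl54 (50.5 FPKM each), Mrpl20 (47.1 FPKM), Mrpl23 (46.4 FPKM) and Mrps7 (41.0 FPKM). In Control, Mrpl17 stood at 75.6 ± 3.02 FPKM (SD, n = 3), apart from Mrpl54 at 44.3 ± 4.40 and Mrpl13 at 42.2 ± 5.83. Mrpl54, Mrpl13, Mrpl20 (42.1 ± 5.51 FPKM) and Mrpl23 (38.0 ± 7.69 FPKM) did not differ from their neighbours in that order beyond the SD. The lowest tested members were Mrps10 (4.51 FPKM), Mrpl47 (4.28 FPKM), Mrps36 (3.78 FPKM) and Mrpl1 (1.91 FPKM). The median member was at 17.8 FPKM, the quartiles were 10.7 and 28.1 FPKM, and 56 of the 72 were at 10 FPKM or more.

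Summed over the family, the level was highest with PDGF-BB. The members' FPKM summed to 1339 ± 134 in Control, 1801 ± 183 with PDGF-BB and 1462 ± 32.0 with both agents (SD, n = 3 each). The lowest PDGF-BB library (1667) lay above the highest Control library (1481) and above the highest PDGF-BB+PTUPB library (1493), while the Control and PDGF-BB+PTUPB ranges overlapped. On CPM (counts scaled to library size by the trimmed mean of M-values, TMM), the mean sum with PDGF-BB was 1.26 times that of Control. The mean sum with PTUPB was 0.842 times that of PDGF-BB alone and 1.06 times that of Control. Genes named for the large subunit summed to 865 ± 86.4, 1176 ± 122 and 953 ± 23.5 FPKM in the 3 groups in that order, and those named for the small subunit to 474 ± 47.6, 625 ± 61.1 and 509 ± 8.08 FPKM. The ratio of the large to the small sum was 1.83 ± 0.0121 in Control, 1.88 ± 0.0147 with PDGF-BB and 1.87 ± 0.0169 with both agents, with the Control range (1.82 to 1.84) below the ranges of the other groups (1.86 to 1.89 in both).

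**Figure D1:**
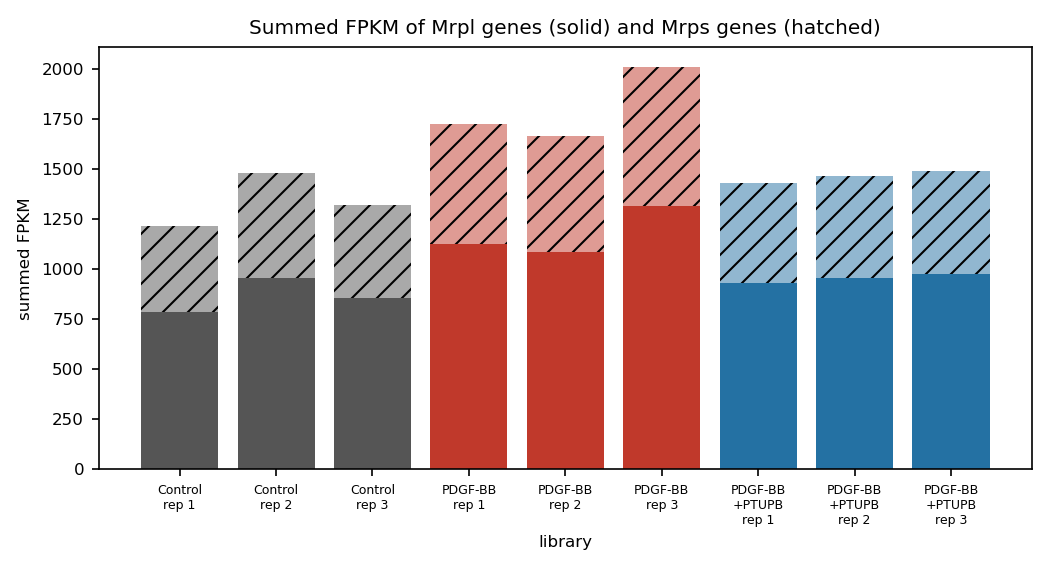
Summed FPKM of all 76 mitochondrial ribosomal protein rows in each of the 9 libraries, with large-subunit genes solid and small-subunit genes hatched above them. The 3 PDGF-BB libraries (1667 to 2010 FPKM) stand above the 3 Control (1215 to 1481) and the 3 PDGF-BB+PTUPB libraries (1429 to 1493).

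The first comparison, PDGF-BB against Control, addressed what the growth factor changes in these cells. By edgeR's quasi-likelihood test with Benjamini-Hochberg adjustment over all tested genes, 33 of the 72 members (45.8%) rose at an adjusted p under 0.05 and 0 fell. Over all tested genes 17.3% were called higher and 15.8% lower. By DESeq2, 32 members rose and 1, Mrps2, fell. The 17.3% and 15.8% are edgeR shares, and those of DESeq2 are not given here. Of the 72, 50 (69.4%) had an unadjusted edgeR p under 0.05 in either direction, against 43.9% of all tested genes. The log2 fold change was above 0 for 68 members, against 5375 of the 11197 tested genes. Its median was 0.36 and its range -0.30 to 0.71 over the members, whereas the median of all tested genes was -0.02. All 3 PDGF-BB libraries lay above all 3 Control libraries for 44 members, which is so for 22.6% of all tested genes. All 3 lay below all 3 Control libraries for 2 members, which is so for 22.0% of all tested genes. Of genes named for the large subunit 20 of 43 rose (median log2 fold change 0.39), and of those named for the small subunit 13 of 29 (median 0.32).

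**Figure D2:**
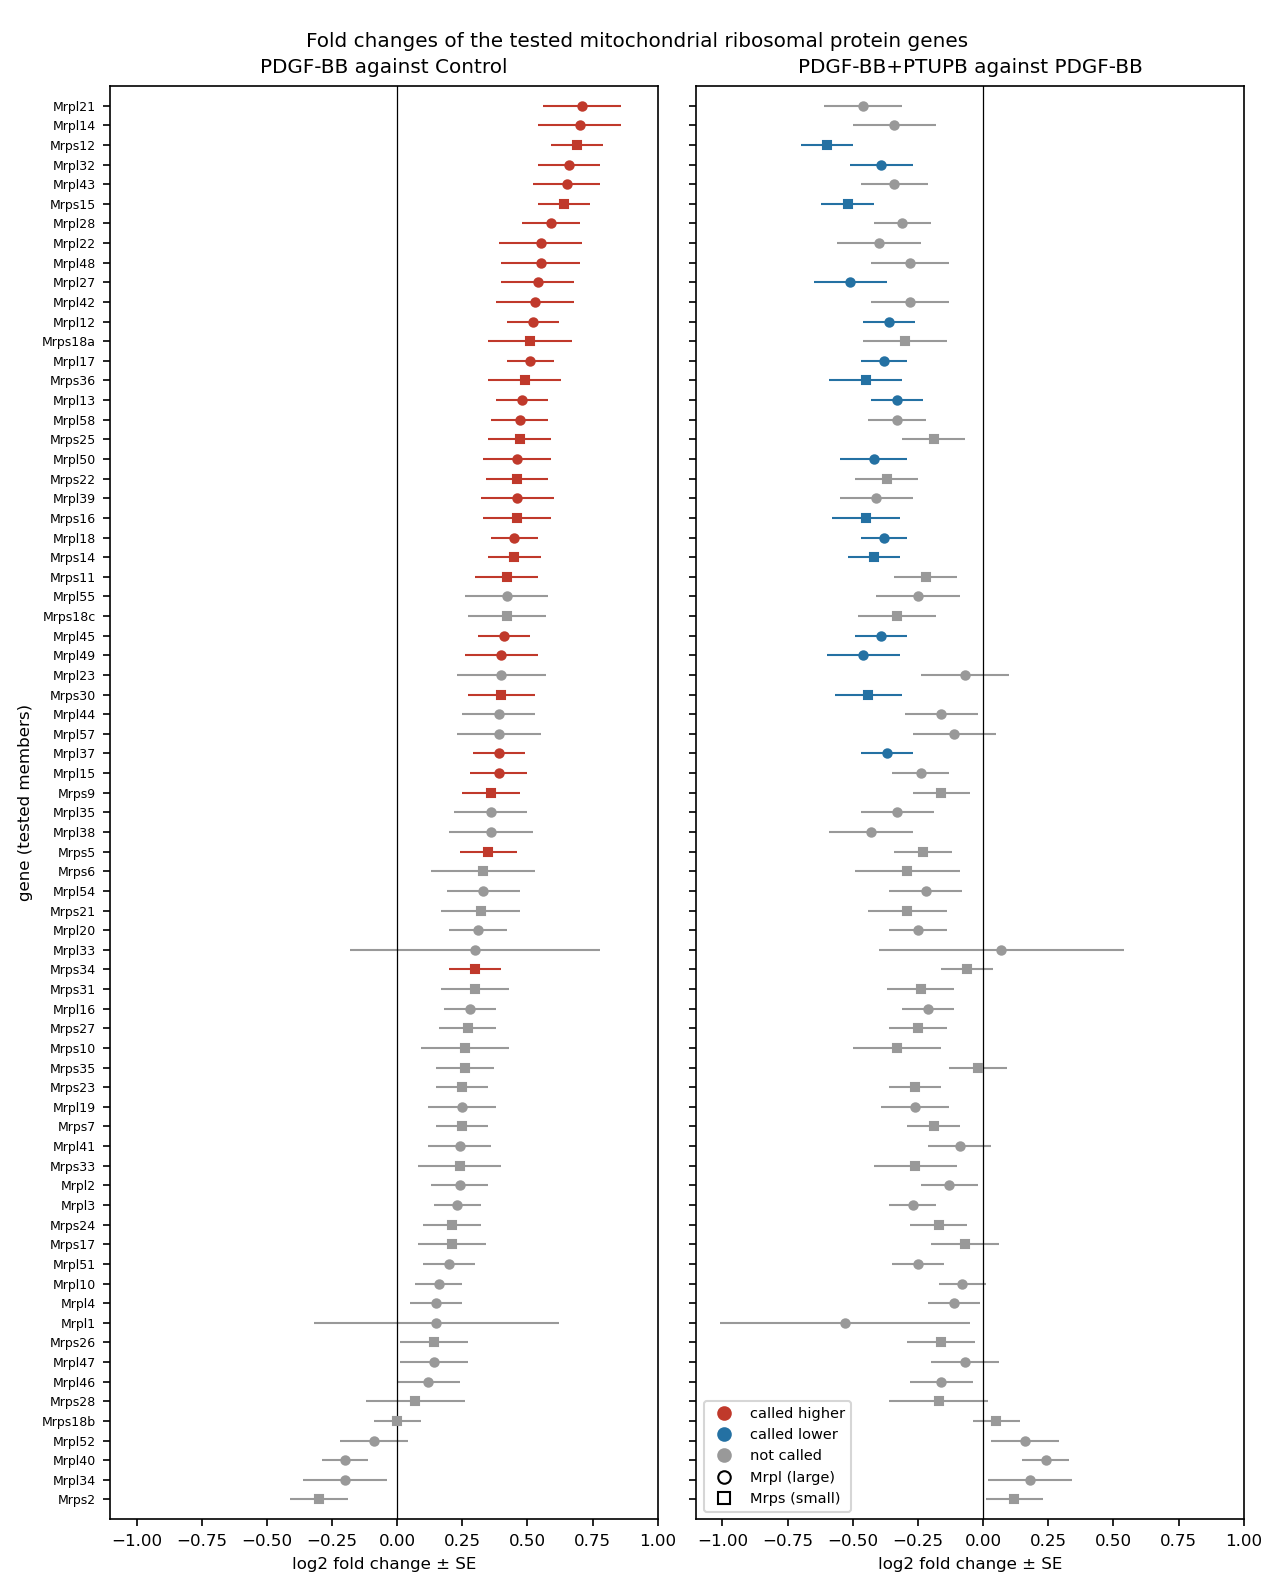
Log2 fold change with its standard error for each of the 72 tested members, ordered by the change with PDGF-BB, for PDGF-BB against Control (left) and PDGF-BB+PTUPB against PDGF-BB (right). Circles are large-subunit and squares small-subunit genes. The 33 members called higher are red, the 16 called lower are blue and the others are grey.

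Among small-subunit genes, Mrps12, which encodes the protein at the decoding centre that checks codon and anticodon, changed most. Its level was 14.2, 16.2 and 17.0 CPM in Control, 25.5, 24.0 and 27.0 CPM with PDGF-BB and 18.2, 15.8 and 16.3 CPM with both agents. The PDGF-BB libraries stood clear of all others, and the other 2 groups overlapped. Mrps12 rose with PDGF-BB by 0.69 ± 0.10 on the log2 scale (SE, 1.61-fold, edgeR adjusted p = 8.24e-04). Mrps15, whose bacterial homologue binds the ribosomal RNA early in small-subunit assembly, was at 24.0, 24.0 and 22.9 CPM in Control, 33.9, 34.2 and 42.0 with PDGF-BB and 24.6, 26.0 and 26.1 with both agents. Again all PDGF-BB libraries were high, and the PDGF-BB+PTUPB libraries lay just above Control without overlap. Mrps15 rose by 0.64 ± 0.10 (edgeR adjusted p = 8.72e-04). The other small-subunit genes that rose were Mrps5, Mrps9, Mrps11, Mrps14, Mrps16, Mrps18a, Mrps22, Mrps25, Mrps30, Mrps34 and Mrps36, by 0.30 (Mrps34) to 0.51 (Mrps18a). Mrps5, next to the messenger RNA entry in the bacterial ribosome, rose by 0.35 ± 0.11 (edgeR adjusted p = 0.0274). Some of these names do not match the particle: Mrps30 and Mrps18a proteins sit in the large subunit in known structures, and Mrps36 protein is known as a part of the 2-oxoglutarate dehydrogenase complex. In a grouping by particle that was added after the values were seen, with the first 2 counted as large and Mrps36 in neither, 22 of 45 large-subunit and 10 of 26 small-subunit genes rose (medians 0.39 and 0.30). In that grouping the ratio of the large to the small FPKM sum was 2.02 ± 0.0126 in Control, 2.12 ± 0.0310 with PDGF-BB and 2.09 ± 0.0173 with both agents (SD, n = 3). These sums hold the tested members only, whereas the sums by name above hold all 76 rows.

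Among large-subunit genes, the largest log2 changes were those of Mrpl21 (0.71 ± 0.15) and Mrpl14 (0.70 ± 0.16), both homologues of conserved bacterial ribosomal proteins. Mrpl21 was at 9.49, 11.8 and 10.5 CPM in Control, 16.3, 14.6 and 21.3 with PDGF-BB and 12.3, 13.0 and 12.8 with both agents, so that the 3 groups did not overlap and the inhibitor group lay between the others. Mrpl14 was at 6.12, 7.67 and 8.15 CPM in Control, 10.3, 12.1 and 13.3 with PDGF-BB and 8.79, 11.0 and 8.43 with both agents. Its second inhibitor library reached into the PDGF-BB range. The edgeR adjusted p was 0.00491 for Mrpl21 and 0.00881 for Mrpl14.

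Mrpl32, whose protein joins the ribosome only after the mitochondrial m-AAA protease has cut its precursor, was at 15.4, 21.6 and 18.6 CPM in Control. It was at 29.3, 29.5 and 29.2 CPM with PDGF-BB and 21.4, 22.0 and 23.9 CPM with both agents. The PDGF-BB libraries were nearly equal and well above the rest, and the first inhibitor library fell within the Control range. Mrpl32 rose by 0.66 ± 0.12 (edgeR adjusted p = 0.00204). Spg7, a subunit of that protease in the list of assembly factors, rose as well, by 0.46 ± 0.09 (edgeR adjusted p = 0.00395). Afg3l2, its other subunit in that list, was tested and not called.

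Mrpl17, the most abundant member and 1 of the genes with an NRF1 motif, was at 70.5, 74.0 and 72.3 CPM in Control, 97.9, 93.1 and 117 with PDGF-BB and 76.5, 78.8 and 81.5 with both agents. None of the 3 groups overlapped, and the inhibitor group lay close above Control. Mrpl17 rose by 0.51 ± 0.09 (edgeR adjusted p = 0.00217). Mrpl32 and Mrpl17 rose and both hold the full NRF1 motif, whereas Mrpl44 and Mrps18b hold it and did not pass the test. Of the 25 members that rose and have a window, 2 (8.00%) held it, and of the 32 that were tested, not called and have a window, 2 (6.25%).

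The stalk of the large subunit, which recruits translation factors, includes Mrpl12, Mrpl10 and Mrpl11. Mrpl12, whose protein is also reported to bind the mitochondrial RNA polymerase, was at 30.0, 32.5 and 31.0 CPM in Control, 43.4, 39.3 and 50.8 with PDGF-BB and 35.5, 32.1 and 36.3 with both agents. Its PDGF-BB libraries lay above all others, and it rose by 0.52 ± 0.10 (edgeR adjusted p = 0.00406). Mrpl10 had a log2 difference of 0.16 (edgeR adjusted p = 0.191). The file lists Mrpl11, Mrpl9 and Mrpl24 with a lower-case first letter, which keeps them out of the rule, and the last 2 are named here after their values were seen. Their log2 differences with PDGF-BB were 0.21 (mrpl11), 0.18 (mrpl9) and -0.19 (mrpl24), and none of the 3 was called.

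**Figure D3:**
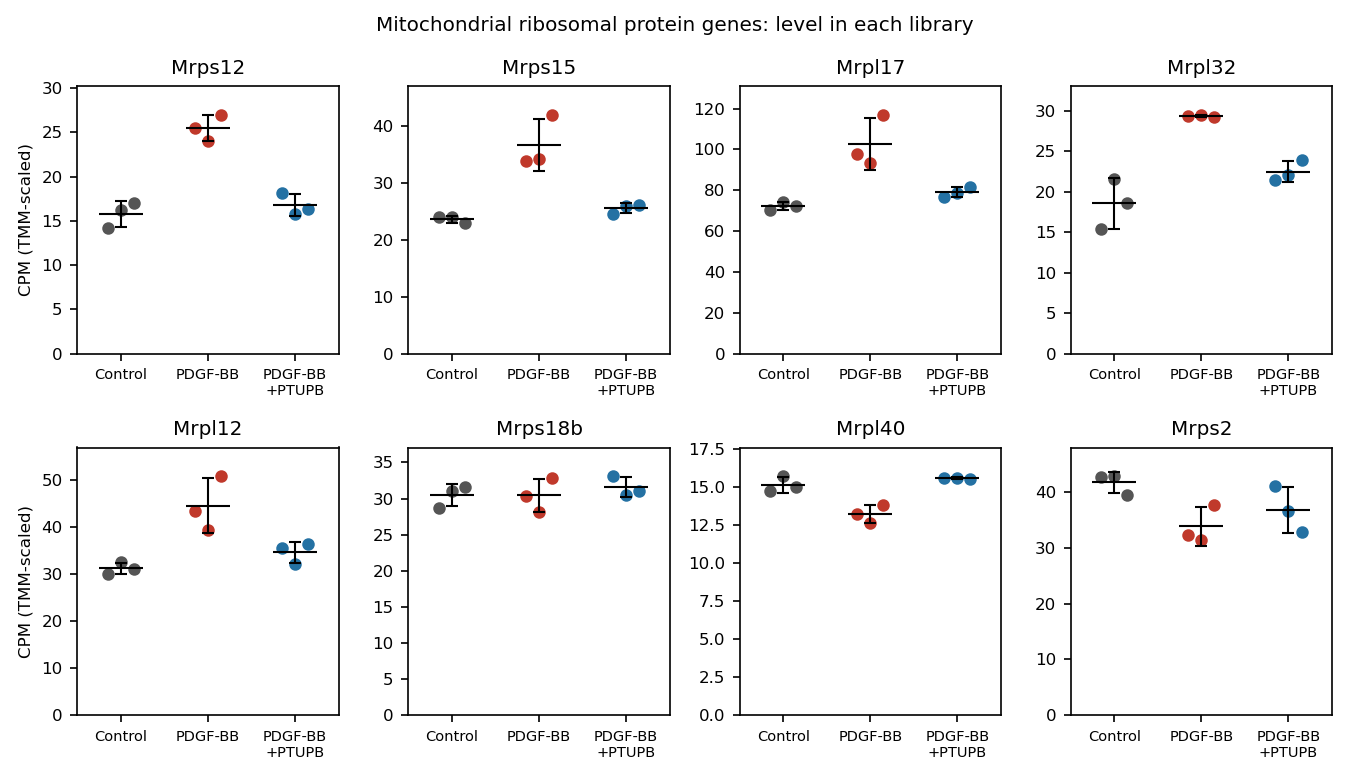
CPM of 8 members in each library, with the mean (long line) and SD (bars) of the 3 libraries per group. In the panels of Mrps12, Mrps15, Mrpl17, Mrpl32 and Mrpl12 the PDGF-BB libraries lie above all others, in that of Mrps18b the groups overlap, and in those of Mrpl40 and Mrps2 the PDGF-BB libraries lie below Control.

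After Mrpl21, Mrpl14 and Mrpl32, the largest rises among genes named for the large subunit were those of Mrpl43, Mrpl28, Mrpl22 and Mrpl48. In that order they were 0.65 ± 0.13, 0.59 ± 0.11, 0.55 ± 0.16 and 0.55 ± 0.15 on the log2 scale. Mrpl43 was at 20.4, 24.6 and 25.5 CPM in Control, 34.4, 33.1 and 43.3 with PDGF-BB and 27.4, 31.8 and 28.5 with both agents, which left the 3 groups apart. Mrpl28 was at 15.3, 17.5 and 19.4 CPM in Control, 25.1, 24.6 and 28.8 with PDGF-BB and 19.5, 20.9 and 22.8 with both agents, also with 3 separate ranges. Mrpl58, which releases peptides from stalled ribosomes, rose by 0.47 ± 0.11 (edgeR adjusted p = 0.00716). Mrpl45, whose protein lies at the tunnel exit and anchors the ribosome to the inner membrane, rose by 0.41 ± 0.10 (edgeR adjusted p = 0.0110). The other large-subunit genes that rose were Mrpl13, Mrpl15, Mrpl18, Mrpl27, Mrpl37, Mrpl39, Mrpl42, Mrpl49 and Mrpl50, by 0.39 (Mrpl15 and Mrpl37) to 0.54 (Mrpl27).

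The 39 members that did not pass the test had log2 differences from -0.30 (Mrps2) to 0.42 (Mrpl55 and Mrps18c). Mrpl44, an RNase III-like protein of the large subunit, had 0.39 ± 0.14 (edgeR adjusted p = 0.0596), and Mrps27, a pentatricopeptide repeat protein, had 0.27 ± 0.11 (edgeR adjusted p = 0.0904). Mrps2, Mrpl34, Mrpl40 and Mrpl52 were below 0. Mrps2 was at 42.8, 42.9 and 39.6 CPM in Control and 32.4, 31.4 and 37.8 in PDGF-BB, with all 3 treated libraries below all 3 Control libraries. Its change was -0.30 ± 0.11 (edgeR adjusted p = 0.0506), and it passed the threshold in 6 of the alternatives tried, DESeq2 among them (adjusted p = 0.0457). Mrpl40 was likewise lower in each PDGF-BB library (13.2, 12.6 and 13.8 CPM) than in each Control library (14.7, 15.7 and 15.0 CPM), by -0.20 ± 0.09 (edgeR adjusted p = 0.127).

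The 3 Mrps18 genes encode related proteins that occupy different places in the mitoribosome, and their changes differed in size. Mrps18a was at 11.9, 14.9 and 12.3 CPM in Control and 18.0, 14.9 and 22.6 in PDGF-BB, with 1 treated library at the level of the highest Control library, and rose by 0.51 ± 0.16 (edgeR adjusted p = 0.0318). Mrps18c was at 7.32, 8.80 and 8.15 CPM in Control and 10.7, 9.66 and 12.3 in PDGF-BB, with no overlap and a difference of 0.42 ± 0.15 (edgeR adjusted p = 0.0556). Mrps18b was at 28.7, 31.0 and 31.6 CPM in Control and 30.4, 28.2 and 32.8 in PDGF-BB, which overlap, and its difference was 0.00 ± 0.09 (edgeR adjusted p = 0.983). The difference between the 3 genes was not tested. The head-to-head pair Mrps11 and Mrpl46 also had unequal values, with Mrps11 rising by 0.42 ± 0.12 (edgeR adjusted p = 0.0213) and Mrpl46 at 0.12 ± 0.12 (edgeR adjusted p = 0.470).

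Single libraries set part of these counts. Across the 72 members, PDGF-BB replicate 3 was the highest of its group for 65, and Control replicate 2 the highest of its group for 48. In both libraries shorter genes were relatively high: across tested genes, the deviation from the other 2 libraries of the group had a Spearman rho with exonic length of -0.381 and -0.389, against 0.348 in Control replicate 1 and 0.350 in PDGF-BB replicate 2. Tested members had a median exonic length of 1129.5 bases, against 2336 bases for all tested genes. Without both of these libraries 36 members rose. With the length trend of each library against the mean of all libraries removed, 23 rose (median log2 fold change 0.24). That removal also takes out any difference between groups that follows gene length. The count was 19 without Control replicate 1, 21 without Control replicate 3 and 20 without PDGF-BB replicate 3. For these omitted-library and length fits the share called over all tested genes is not given here. A general change in calls therefore cannot be told apart from a change of the members. Scaling by library totals gave 44 members higher and 0 lower, beside 2410 higher and 1350 lower among all tested genes (1942 and 1772 with TMM). In each of the 21 alternatives 14 of the 33 rises were called: Mrpl12, Mrpl13, Mrpl14, Mrpl17, Mrpl18, Mrpl21, Mrpl28, Mrpl32, Mrpl37, Mrpl43, Mrpl45, Mrps12, Mrps14 and Mrps15.

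The second comparison, PDGF-BB+PTUPB against PDGF-BB, addressed what the inhibitor changes in stimulated cells. It shares the PDGF-BB libraries with the first, so a high PDGF-BB library raises the size of both. With PTUPB, 16 of the 72 members (22.2%) were lower and 0 higher by edgeR, where 10.0% of all tested genes were called lower and 8.28% higher. DESeq2 called 18 lower and 0 higher, and its shares over all tested genes are not given here. An unadjusted edgeR p under 0.05 was found for 30 members (41.7%), against 32.4% of all tested genes. The median log2 fold change was -0.26 (range -0.60 to 0.24), against 0.01 for all tested genes. Below 0 were 66 members, against 5510 of the 11197 tested genes. For 40 members all 3 PDGF-BB+PTUPB libraries lay below all 3 PDGF-BB libraries, which held for 20.7% of all tested genes. Of genes named for the large subunit 10 of 43 fell (median -0.28) and of those named for the small subunit 6 of 29 (median -0.25). In the grouping by particle these were 11 of 45 and 4 of 26. Each of the 16 was also among the 33 that were higher with PDGF-BB, an overlap that the shared libraries favour.

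Mrps12 and Mrps15, whose library values are given above, fell most, by 0.60 ± 0.10 (edgeR adjusted p = 0.00448) and by 0.52 ± 0.10 (edgeR adjusted p = 0.00594) on the log2 scale. Mrpl27, the homologue of a bacterial protein that reaches toward the peptidyl transferase centre, was at 25.5, 22.1 and 30.9 CPM with PDGF-BB and 17.2, 18.8 and 19.3 CPM with both agents. These did not overlap, and its inhibitor libraries lay within the Control range of 16.5 to 20.6 CPM. Mrpl27 fell by 0.51 ± 0.14 (edgeR adjusted p = 0.0283). Mrpl49, Mrps16, Mrps36, Mrps30, Mrps14 and Mrpl50 fell by 0.46, 0.45, 0.45, 0.44, 0.42 and 0.42, with edgeR adjusted p values from 0.0149 (Mrps14) to 0.0488 (Mrps36). Mrps30 was at 28.9, 32.3 and 40.1 CPM with PDGF-BB and 24.7, 24.5 and 25.7 CPM with both agents, with the inhibitor libraries close together and below. Mrpl12 (-0.36 ± 0.10), Mrpl17 (-0.38 ± 0.09), Mrpl32 (-0.39 ± 0.12), Mrpl13, Mrpl18, Mrpl37 and Mrpl45 completed the list of 16.

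The 17 other members that rose with PDGF-BB were not called here. Among them were Mrpl21 (-0.46, edgeR adjusted p = 0.0576), Mrpl14 (-0.34, edgeR adjusted p = 0.185), Mrpl43 (-0.34, edgeR adjusted p = 0.0903) and Mrpl58 (-0.33, edgeR adjusted p = 0.0575). For Mrpl40 the 3 inhibitor libraries (15.6, 15.6 and 15.5 CPM) lay above the 3 PDGF-BB libraries, with a difference of 0.24 ± 0.09 (edgeR adjusted p = 0.0994). The number of lower calls depended on single libraries: 9 members fell without PDGF-BB replicate 1, 6 without PDGF-BB replicate 3, 2 without PDGF-BB+PTUPB replicate 1, 2 without PDGF-BB+PTUPB replicate 2 and 6 without PDGF-BB+PTUPB replicate 3. Without both Control replicate 2 and PDGF-BB replicate 3, 13 fell, and with the length trend removed 15 fell (median -0.20). Shares over all tested genes in these fits are not given here, so a general loss of calls cannot be told from one of the members. Mrps12 and Mrps15 were the 2 falls called in all 21 alternatives.

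The third comparison, PDGF-BB+PTUPB against Control, gave no call among the members: 0 were higher and 0 lower by edgeR, DESeq2 and limma. Over all tested genes edgeR called 1.89% higher and 0.313% lower, or 2.21% in either direction. At an unadjusted p under 0.05 there were 5 members by edgeR (6.94%, against 13.7% of all tested genes), 1 by DESeq2 and 8 by limma on log2(FPKM + 1). The all-gene shares for DESeq2 and limma are not given here. The median log2 difference was 0.07 (range -0.38 to 0.37), and 57 of the 72 were above 0, against 5368 of the 11197 tested genes. For 11 members all inhibitor libraries lay above all Control libraries, a state found for 12.1% of all tested genes. For 0 members all inhibitor libraries lay below all Control libraries, against 9.38% of all tested genes. Mrpl14 had 0.36 ± 0.17 (edgeR adjusted p = 0.369) and Mrpl32 0.27 (edgeR adjusted p = 0.349), while Mrps12 had 0.09 (edgeR adjusted p = 0.785). When replicate 2 of Control and replicate 3 of PDGF-BB were both left out, 4 members, Mrpl23, Mrpl32, Mrpl44 and Mrps35, were higher than Control, by 0.35 (Mrps35) to 0.46 (Mrpl23). A p above the threshold does not show that the members returned to the Control level. By group means, 53 members ran in the order Control, PDGF-BB+PTUPB, PDGF-BB from low to high, and 13 had PDGF-BB+PTUPB at or below Control with PDGF-BB highest. Both orders put PDGF-BB highest, which its high libraries favour, and their share over all tested genes was not counted.

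Mitoribosomal proteins with other symbols were Dap3, Chchd1, Ptcd3, Gadd45gip1 and Aurkaip1, and 2 of these 5 rose with PDGF-BB. Dap3, a GTP-binding protein of the small subunit, was at 50.0, 52.7 and 54.0 CPM in Control, 67.5, 65.9 and 77.1 with PDGF-BB and 55.0, 57.8 and 64.9 with both agents. All its PDGF-BB libraries were the highest, and it rose by 0.43 ± 0.09 (edgeR adjusted p = 0.00621). Chchd1 rose by 0.52 ± 0.15 (edgeR adjusted p = 0.0205), and Ptcd3 (0.20), Gadd45gip1 (0.10) and Aurkaip1 (-0.02) were not called. None of the 5 was called for PTUPB against PDGF-BB.

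Among genes that work with the mitoribosome, both rises and falls were called. Apart from protein import, the shares called in these lists were near or below those of all tested genes with PDGF-BB (17.3% higher and 15.8% lower). Of 15 translation factors, 3 (20.0%) rose with PDGF-BB: Tufm, the elongation factor that brings transfer RNA (0.41 ± 0.10, edgeR adjusted p = 0.0125), its exchange factor Tsfm (0.44) and the GTPase Guf1 (0.43). Mrrf, which recycles the ribosome after each protein, was the 1 (6.67%) that fell. Its levels were 41.9, 40.9 and 41.3 CPM in Control, 28.8, 24.1 and 26.9 CPM with PDGF-BB and 37.0, 41.0 and 40.2 CPM with both agents, so the PDGF-BB libraries were the low ones. The change was -0.64 ± 0.09 with PDGF-BB (edgeR adjusted p = 4.49e-04) and 0.57 ± 0.09 with PTUPB against PDGF-BB (edgeR adjusted p = 0.00270). Gfm1, the factor of translocation, and Guf1 were both lower with PTUPB than with PDGF-BB alone, by -0.45.

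Protein import and chaperone genes had 11 of 23 higher with PDGF-BB (47.8%, median 0.42) and 5 of 23 lower with PTUPB (21.7%, median -0.28), where all tested genes had 17.3% and 10.0%. Hspd1, the mitochondrial HSP60 chaperonin, was at 307, 303 and 295 CPM in Control, 471, 459 and 492 with PDGF-BB and 324, 336 and 335 with both agents. The PDGF-BB libraries stood far above the others and the inhibitor group just above Control, with a rise of 0.65 ± 0.06 (edgeR adjusted p = 6.33e-05) and a fall with PTUPB of -0.52 ± 0.06 (edgeR adjusted p = 0.00106). The import receptor Tomm20 (0.43), Tomm7 (0.62) and the inner-membrane scaffold Phb (0.53) also rose, and Tomm40, the import pore, was lower with PTUPB than with PDGF-BB by -0.59 ± 0.15 (edgeR adjusted p = 0.0211).

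Of 20 aminoacyl-tRNA synthetase genes 3 (15.0%) rose with PDGF-BB, Kars (0.63), Yars2 (0.59) and Hars2 (0.54), and Kars and Hars2 were lower with PTUPB (10.0%, the same share as over all tested genes). Kars serves the cytosol as well as the mitochondrion. Of 19 genes for mitochondrial DNA and RNA maintenance, 4 (21.1%) rose, among them the RNA-binding protein Slirp (0.84 ± 0.16, edgeR adjusted p = 0.00266) and the DNA-packaging transcription factor Tfam (0.38 ± 0.11, edgeR adjusted p = 0.0236). The DNA polymerase Polg was the 1 (5.26%) that fell (-0.29), and with PTUPB the RNA-processing nuclease Elac2 was lower than with PDGF-BB alone (-0.44). Of 25 genes for mitoribosome assembly and rRNA modification, 2 (8.00%), Spg7 and Lyrm9, rose, and Spg7 (-0.30) and Rcc1l (-0.40) were lower with PTUPB. Of 9 regulators of mitochondrial gene expression, 1 (11.1%), the nuclear receptor gene Esrra, rose (0.58 ± 0.11, edgeR adjusted p = 0.00296). Genes of factors for the NRF1, ETS, YY1 and E-box motifs were in that list and were not called: Nrf1 had 0.11, the ETS factor gene Gabpa -0.22, Yy1 0.03 and the E-box factor gene Myc 0.12. In PDGF-BB+PTUPB against Control 0 genes of these lists were called.

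**Figure D4:**
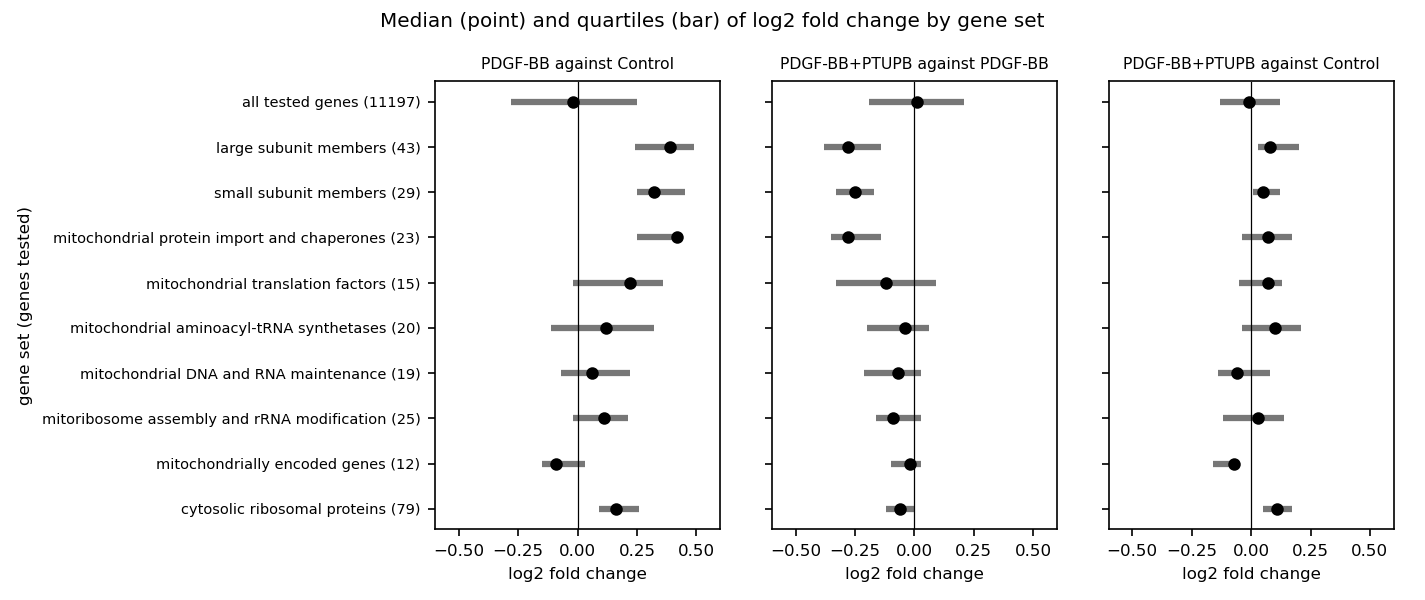
Median (point) and quartiles (bar) of the log2 fold change in each gene list for the 3 comparisons, with the number of tested genes in brackets. The medians of the 2 mitoribosomal subunits and of the import genes lie right of all tested genes with PDGF-BB and left of them with PTUPB against PDGF-BB, and the medians of mitochondrially encoded genes (-0.09 and -0.02) stay near 0.

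None of the transcripts that the mitoribosome translates passed the test. Of 13 mitochondrially encoded genes 12 were tested, and Mt-co1 is listed at 0. With PDGF-BB, 0 of the 12 were called by edgeR and 0 had an unadjusted p under 0.05, with a median log2 difference of -0.09 and a range from -0.33 to 0.18. They took 3.12 ± 0.401% of counts in Control, 3.23 ± 0.258% with PDGF-BB and 3.01 ± 0.172% with both agents (SD, n = 3), ranges that overlap. With PTUPB against PDGF-BB, 0 of the 12 were called and 1 had an unadjusted p under 0.05. Cytosolic ribosomal protein genes had 4 of 79 higher with PDGF-BB (5.06%, median 0.16), and with the length trend removed 2 were higher, 4 lower and the median was -0.02. Under the same correction the mitoribosomal median went from 0.36 to 0.24.

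Mrpl1 has a gene of like name in the file, and other members overlap the position of another gene. The gene LOC100359687 is named Mrpl1-like and is called its near copy here by that name only. Mrpl1 had 29, 38 and 33 counts in Control, 37, 40 and 20 with PDGF-BB and 41, 9 and 22 with both agents. The copy had 40, 58 and 40 counts, then 30, 49 and 65, then 32, 93 and 42. The second PDGF-BB+PTUPB library is the lowest of all for Mrpl1 and the highest of all for the copy. The sums were 69, 96 and 73 counts in Control, 67, 89 and 85 with PDGF-BB and 73, 102 and 64 with both agents, which overlap, so the level of Mrpl1 alone is uncertain.

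**Figure D5:**
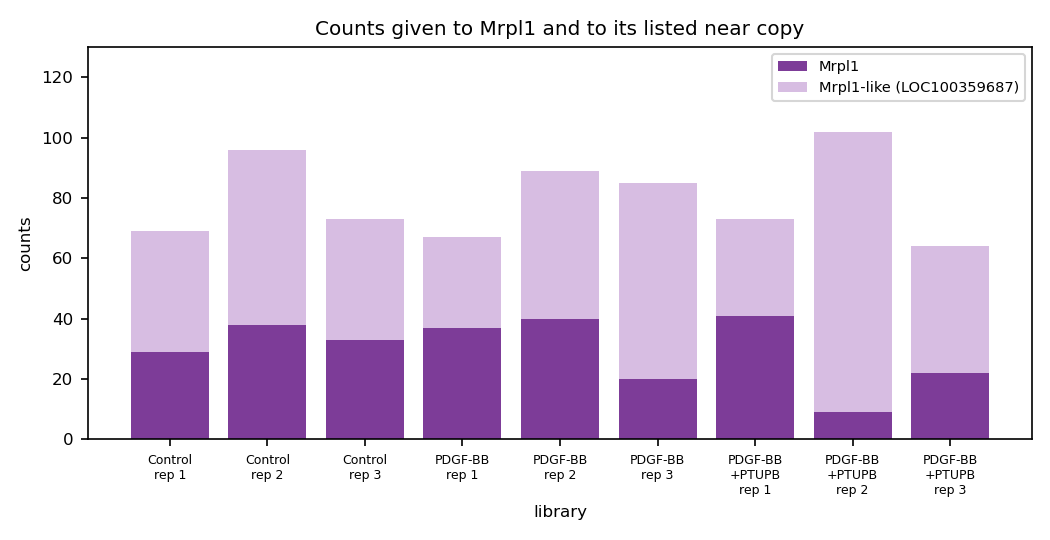
Counts given to Mrpl1 (dark) and to its listed near copy (light) in each library, stacked. The sum runs from 64 to 102 counts, and the share given to Mrpl1 differs from library to library, with 9 counts of 102 in PDGF-BB+PTUPB replicate 2.

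By the positions in the deposited table, 11 members overlap another gene, and 9 of them a gene with reads on the opposite strand. The strand used in counting is not stated, so reads of such partners cannot be told apart. Mrpl13 overlaps Mtbp, which had 39, 33 and 55 counts in Control, 124, 152 and 109 with PDGF-BB and 62, 99 and 62 with both agents. Mrpl57 overlaps Ska3, a spindle and kinetochore gene with 90, 55 and 95 counts in Control, 362, 370 and 334 with PDGF-BB and 178, 277 and 208 with both agents. Both partners ran high with PDGF-BB, and their part in the values of Mrpl13 and Mrpl57 was not tested. Mrpl21 overlaps Ighmbp2, Mrpl43 overlaps Twnk and Mrpl49 overlaps Syvn1, partners whose counts overlapped between Control and PDGF-BB. Mrps18a overlaps Rsph9, which had at most 20 counts in a library.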

How the data were processed

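Per the labels' protocols, poly(A) RNA was primed at random and sequenced paired-end (150 bases). Per the submitters' processing notes, cutadapt 1.9.1, HISAT2 2.0.1 and HTSeq 0.6.1 were used. The notes name the mouse build mm10, whereas identifiers are those of rat Ensembl, so no coordinates of the alignment are given, and promoter positions come from RefSeq (GRCr8). The authors deposited expected counts and FPKM per gene. Of 32623 genes 978 (5 of them members) have counts that are not whole, and these were rounded. Exonic gene length, deposited in the same table, served for the length offset.

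Counts (12729187 to 16911050 per library) were fitted in R 4.3.3 with the quasi-likelihood F test of edgeR 4.0.16 after TMM scaling. All 9 libraries entered a single model of group, which left 6 residual degrees of freedom. Tests were two-sided, adjusted by Benjamini-Hochberg over 11197 genes (FPKM of 1 or more in 3 or more libraries) and called at 0.05. A total of 3 counts corresponds to 0.177 CPM in the deepest library. The script was tested on simulated counts of 11197 genes, for PDGF-BB against Control, with 50 genes changed at each of 4 sizes. It recovered 0 of 50 at 1.25-fold, 21 at 1.5-fold, 39 at 2-fold and 45 at 3-fold, and called 5 unchanged genes. Far fewer genes were changed there than were called in the real data, so these rates need not hold for it. A member that was not called may still have changed by a small amount. The 21 alternatives covered scaling, DESeq2 1.42.0, limma 3.58.1 on log2(FPKM + 1) and log2(FPKM + 0.1), filters, the groups fitted, the replicate number, gene length and omitted libraries. The labels name no batch.

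The members and the 14 gene lists (other-symbol and lower-case mitoribosomal genes, translation factors, synthetases, assembly, maintenance, regulators, import, mitochondrially encoded genes, and markers of 4 cell types; cytosolic ribosomal proteins by symbol) were chosen with earlier results of these data known. Named by rule were the 8 largest rises and falls per comparison among called members, the 6 highest and 4 lowest by FPKM, members failing the filter, a set of members with known roles, and up to 4 called genes per other list. Other genes were named after their values were seen.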

Additional observations from a re-analysis of the deposited data

How the results depend on the processing

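No member that was called changed direction in any of the 21 alternatives. With PDGF-BB, the rises numbered 19 to 44 when 1 library was left out, and 21 with the length offset together with the replicate block. The count of falls with PDGF-BB, 0 in the main result, was 1 with DESeq2 and with its size factors (Mrps2), 1 with no filter and 1 with a mean of at least 10 counts (Mrpl53), 1 with the length offset and the replicate block (Mrpl34), 0 to 1 with 1 library left out, and 1 with replicate 2 of Control and replicate 3 of PDGF-BB both left out. For PDGF-BB+PTUPB against PDGF-BB, 10 members fell with no filter, 9 with the length offset and the replicate block, and 2 to 18 with 1 library left out. For PDGF-BB+PTUPB against Control, 4 were higher with those libraries both left out, and 1 was lower with no filter (Mrpl53). The shares over all tested genes in these settings are not given here, so moves of the members cannot be told from general ones. The cause of these moves was not tested, except that a lower or absent filter admits Mrpl53 and leaving out a library leaves 2 in its group, whose spread is then pooled with the other groups.

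The labels share replicate numbers across groups but do not say that a number marks a common culture. Deviations of same-numbered libraries correlated from -0.238 to 0.177 across genes, and those of differently numbered libraries from -0.231 to 0.231. Across members the ranges were -0.463 to 0.549 and -0.636 to 0.699. With 3 libraries per group, such values cannot settle whether a number marks a common culture. With the replicate block, 27 members rose with PDGF-BB and 6 fell with PTUPB against PDGF-BB. The shares over all tested genes in that fit are not given here.

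Mrpl1 (9 to 41 counts per library) and Mrpl33 (10 to 31) had the fewest counts among tested members, which limits their values. In PDGF-BB+PTUPB replicate 2 Mrpl1 was at its lowest and its near copy at its highest, as described above. The untested Mrpl36 had at most 1 count in a library. The untested Mrpl53 had 0 counts in Control replicate 3 and 45 in Control replicate 1, the library with the smaller total.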
